A study of Mus musculus with 10 samples.

Results

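The genes described here encode hydrolases and membrane proteins of the lysosome in mouse retinal ganglion cells (RGCs), together with granulin and the transcription factors Tfeb and Tfe3. The list holds 42 genes of the 34254 counted in each library, was chosen by gene symbol for the role of the proteins, and was followed gene by gene from uninjured RGCs to RGCs 2 weeks after optic nerve crush (ONC). The lysosome is an acidic compartment in which cathepsins cut proteins, glycosidases and sulfatases trim sugar chains, and lipid enzymes with their helper proteins break down membranes. Its membrane proteins line the compartment, carry digestion products out and sort new enzymes in, and TFEB and TFE3 are related transcription factors that switch on lysosomal genes when they enter the nucleus. Neurons rely on this route because they cannot dilute waste by dividing, and inherited loss of many of these enzymes gives storage diseases of the brain and retina.

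Single-cell RNA-seq libraries were made from wild-type 129S1/SvImJ mice of both sexes at 12 weeks of age, 6 from uninjured retinas and 4 from retinas whose optic nerve had been crushed 2 weeks before. Each batch pooled 10 retinas, was depleted of macrophages, was enriched for RGCs by immunopanning against their surface protein Thy1, and contributed 6000 cells to a 10x Chromium droplet run. The sample labels name the v3 reagent kit and removal of macrophages alone, the paper names the v2 kit and removal of amacrine cells as well, and the design text adds a FACS step. No label says whether libraries come from separate animals, so p-values measure only the spread between these samples. In a level summed over cells, fewer cells with a transcript and less RNA per cell cannot be told apart.

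Deposited cell barcodes numbered 1683 uninjured and 1609 injured. Total UMI counts, in which a UMI marks 1 captured RNA molecule, ranged from 2839693 to 23180399 per uninjured library and from 4698799 to 8860536 per injured library, and the median cell held 20437 to 34337 and 11257 to 14695 UMIs. Injured 3 and 4 shared 421 cell barcodes and differed by less than the sampling noise (median chi-square over sampling noise 0.954), so they were averaged and counted as 1 sample, named injured 3/4. Counted once, the shared barcodes leave 1188 injured barcodes (the paper's number of selected injured RGCs differs from both counts), and numbers of cells and UMIs over all injured libraries hold them in both libraries. The median cell differed in makeup between the groups, with 5712 to 7127 genes in uninjured and 4043 to 4604 in injured libraries, 2.84% to 5.63% and 1.48% to 3.15% mitochondrial UMIs, 2.53% to 4.59% and 5.37% to 6.12% ribosomal protein UMIs, and 1.72% to 4.82% and 6.37% to 7.78% UMIs of the nuclear RNA Malat1. No other pair shared more than 1 barcode. The next lowest ratios were those of uninjured 5 with 6 (1.44), uninjured 1 with 2 (1.748), uninjured 3 with 4 (1.81) and injured 1 with 2 (2.11). Uninjured 5 and 6 lay at 8.90 or more from the other uninjured libraries. For a given difference the ratio grows with depth, so its order does not rank likeness between pairs of unlike depth. Injured 3 and 4 also stood apart by UMIs of the reporter mCherry, which the labels do not mention (the paper describes an AAV2 vector with mCherry as the control of other experiments, injected into the eye before ONC, and whether these mice received it is not known): 86.0% of cells in injured 3 and 84.3% in injured 4 held one, against 7.99% in injured 1, 15.0% in injured 2 and 0 of 1683 uninjured cells, which allows a share of cells with a UMI of up to 0.178% by counting error alone. Xist, the RNA of the inactive X chromosome, had UMIs in 62.1% (injured 1) and 67.4% (injured 2) of cells and in no more than 0.569% elsewhere. By this RNA, female cells were frequent in injured 1 and 2 alone and in no uninjured library, so that sex is unevenly spread over the groups. How the reporter's source or sex bear on the results was not tested, and calls that end without injured 3/4, without another single sample or over cells without an mCherry UMI are named where they occur. These changes kept their sign in each such fit, which held fewer samples or cells, so that a lost call does not show that a change was absent.

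The labelled cell type was checked against its markers. All 8 RGC markers were detected in every sample, with summed levels of 5797 to 8239 CPM in uninjured and 4283, 4871 and 5436 CPM in injured samples. CPM is a gene's UMI count scaled to a common sample total, corrected by edgeR's TMM factors. Sncg had the highest mean CPM of these markers, with 1426, 2053 and 3315 CPM in the lowest, median and highest uninjured sample and 766, 1017 and 1366 CPM in the injured samples. The markers themselves differed between the groups. Of the 8, 5 were lower, among them Pou4f2 (log2 change -2.64, injured over uninjured as fitted by edgeR) and Rbpms (-1.21). Tubb3 was higher (1.22), with 956, 1110.0 and 1719 CPM in injured 1, injured 2 and injured 3/4. Over all genes tested, 22.7% were lower and 21.3% were higher, and the cause of the marker changes was not tested. Over cells without an mCherry UMI the rise of Tubb3 was 0.80 and not called (adjusted p = 0.0673), and Sncg, which was lower, was not called without injured 1 (0.0899) or injured 2 (0.0654).

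Of the 42 genes, 39 passed edgeR's filter on low counts and were tested among 14234 genes, with a call at an adjusted p (Benjamini-Hochberg over all genes tested) under 0.05. After ONC 8 of the 39 were higher and 7 were lower. The balance depends on the scaling, with 6 higher and 10 lower by library totals alone and 6 and 9 by upper-quartile factors. Over all genes tested 21.3% were higher and 22.7% were lower, 44.0% in all, so that the 38.5% of lysosomal genes called is near the background and is no result about the list. Their median log2 change was 0.15, beside -0.03 over all genes tested, and it was not stable: it was 0.08 without injured 1, 0.08 without injured 2, 0.01 with cells thinned to equal depth and -0.05 over cells without an mCherry UMI. Uninjured and injured samples lay apart without overlap for 16 of the 39 genes, or 41.0%, beside 42.9% of all genes tested: for 9 all injured samples were above (all genes 21.9%) and for 7 below (21.1%). Without injured 2 or injured 3/4 the genes higher numbered 5. Single genes, however, ranged from a 12.0-fold rise of Cd63 to a log2 change of -1.62 for Tfeb, and rises and falls occurred within every role group except the lipid enzymes and lipid-binding proteins, where edgeR called 1 rise alone. Log2 changes are given with their standard errors (SE).

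**Figure D1:**
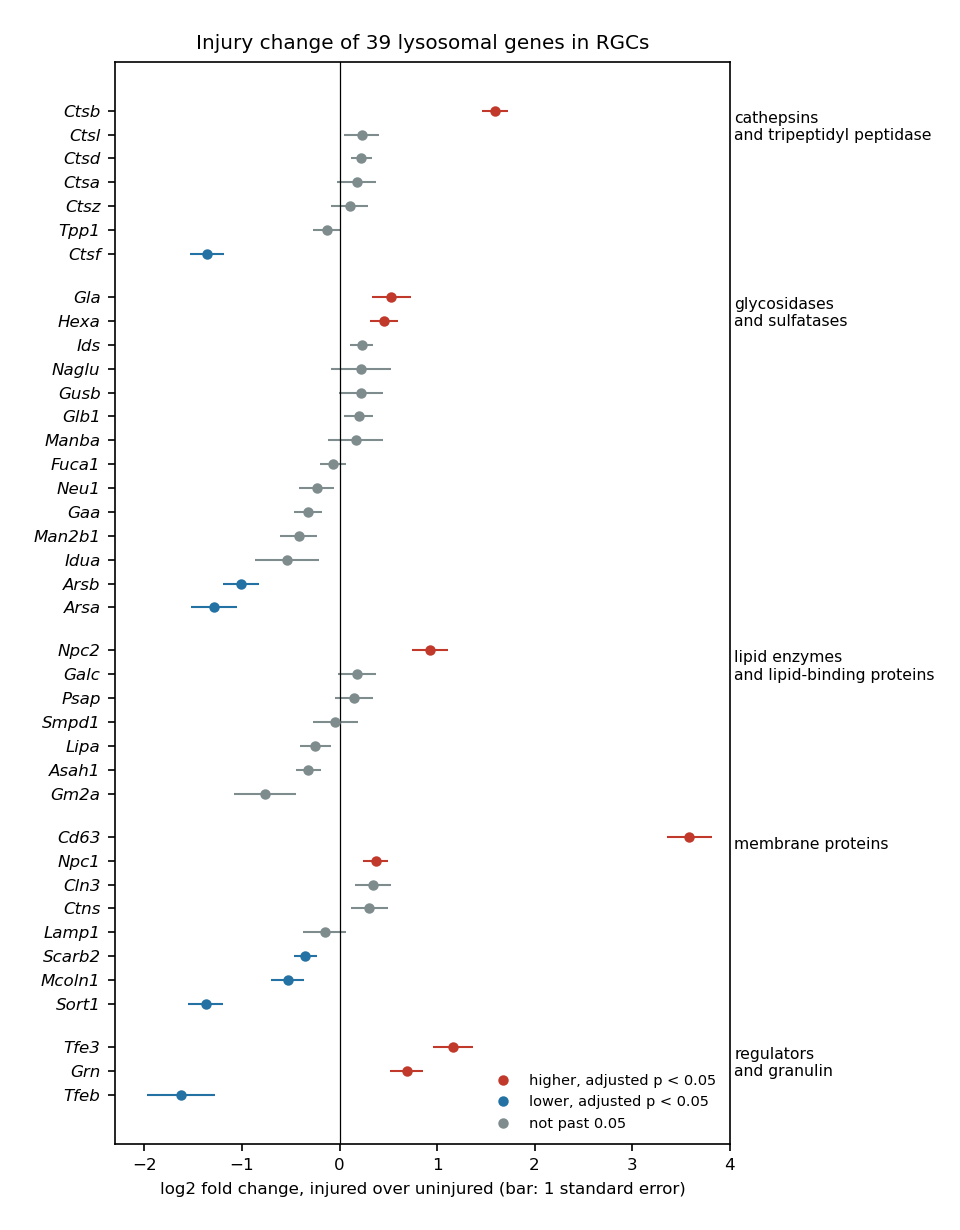
Log2 fold change (x axis, injured over uninjured) of the 39 tested lysosomal genes, sorted within role groups, with bars of 1 standard error from edgeR and colours for genes past an adjusted p of 0.05. Cd63 lies far to the right at 3.59, Ctsb follows at 1.59, and Tfeb, Sort1, Ctsf, Arsa and Arsb lie below -1.

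Among membrane proteins, the largest change on the list was that of Cd63 (chr10:128731528-128748709, forward strand; all positions are from the GENCODE M39 annotation of GRCm39). Cd63 is a tetraspanin of late endosomes and lysosomes that is also carried on exosomes. Its level was 21.9 CPM in the lowest, 40.1 at the median and 43.3 in the highest uninjured sample (mean 35.4 ± 9.26, SD, 6 samples), and 336, 398 and 556 CPM in injured 1, injured 2 and injured 3/4 (mean 430.0 ± 113, SD, 3 samples); injured values below are in this order. All injured samples were far above every uninjured sample, and injured 3/4, the mCherry-rich sample, was the highest. edgeR gave a log2 change of 3.59 (SE 0.23, adjusted p = 3.41e-07). It was 3.38 (adjusted p = 3.44e-06) without injured 3/4 and 3.08 (adjusted p = 2.1e-05) over cells without an mCherry UMI. UMIs of Cd63 were found in most injured cells. At an equal depth of 8000 UMIs per cell, drawn from each cell that had as many (29 uninjured and 233 injured cells did not), 14.7% to 26.4% of the cells of an uninjured library and 80.1% to 83.7% of those of an injured library held a Cd63 UMI (31.1% to 51.5% and 82.4% to 92.3% without thinning). Cells of a type that should lack Cd63 were not analysed here, so no share due to free RNA is given. The annotation also lists a processed pseudogene, Cd63-ps, which is not among the genes counted, so how shared reads were assigned is not known.

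Sort1 (chr3:108191285-108268842) encodes sortilin, a sorting receptor that brings enzymes and prosaposin to the lysosome and also binds progranulin and proneurotrophins. It was present at 62.1, 89.7 and 96.0 CPM in the lowest, median and highest uninjured sample and at 33.6, 33.5 and 28.5 CPM in the injured samples. Uninjured 5 and 6 were the lowest uninjured samples and were still well above all injured samples. Its log2 change was -1.37 (SE 0.18, adjusted p = 8.39e-05). Thinned to equal depth, 35.2% to 53.1% of the cells of an uninjured library and 18.7% to 21.6% of those of an injured library held a Sort1 UMI (65.2% to 91.2% and 27.2% to 37.9% unthinned).

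Smaller changes were found for the cholesterol exporter Npc1, the cation channel Mcoln1 and Scarb2, a receptor of the lysosomal membrane. Npc1 rose from 21.6, 25.1 and 28.0 CPM (lowest, median and highest uninjured sample) to 31.0, 30.8 and 35.3 CPM (log2 change 0.37, SE 0.13, adjusted p = 0.0338). Mcoln1 fell from 13.1, 16.3 and 19.9 CPM to 11.6, 9.43 and 12.1 CPM (log2 change -0.53, SE 0.17, adjusted p = 0.0235). The groups did not overlap for either gene, but the gap between them was small. Scarb2, at 91.0 to 108 CPM in uninjured and 67.1 to 83.9 CPM in injured samples, fell by 0.35 on the log2 scale (adjusted p = 0.0314). These calls are near the threshold and ended in several fits with fewer samples. That of Npc1 ended without any 1 of the 3 injured samples, uninjured 1 or uninjured 2 (adjusted p from 0.0501 to 0.12, the latter without injured 3/4), while its log2 change stayed between 0.33 and 0.43 with each sample left out. Mcoln1 was not called without injured 1 (log2 change -0.56, adjusted p = 0.0605) or injured 2 (-0.43, 0.109). The call of Scarb2 ended without any 1 of the injured samples or of uninjured 2, 3 and 4 (adjusted p from 0.0544 to 0.172), with log2 changes from -0.39 without injured 3/4 to -0.25 without injured 2, and over cells without an mCherry UMI (-0.22, 0.303).

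The membrane protein gene with the highest mean CPM over all samples, Lamp1, which lines the inside of the lysosomal membrane with sugar chains, was not called. It was present at 145, 186 and 252 CPM in the lowest, median and highest uninjured sample and at 147, 148 and 229 CPM in the injured samples. The groups overlapped widely, with uninjured 5 and 6 and injured 3/4 at the high end. Its log2 change was -0.15 (SE 0.22, adjusted p = 0.61), and its size and sign depend on which samples enter: it was 0.07 (adjusted p = 0.748) without uninjured 5 and 6, -0.38 (0.244) without injured 3/4 and -0.62 (0.112) over cells without an mCherry UMI. Cln3 and Ctns, which exports cystine, were not called either, and no uncalled gene of this group was above 0.34 on the log2 scale.

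**Figure D2:**
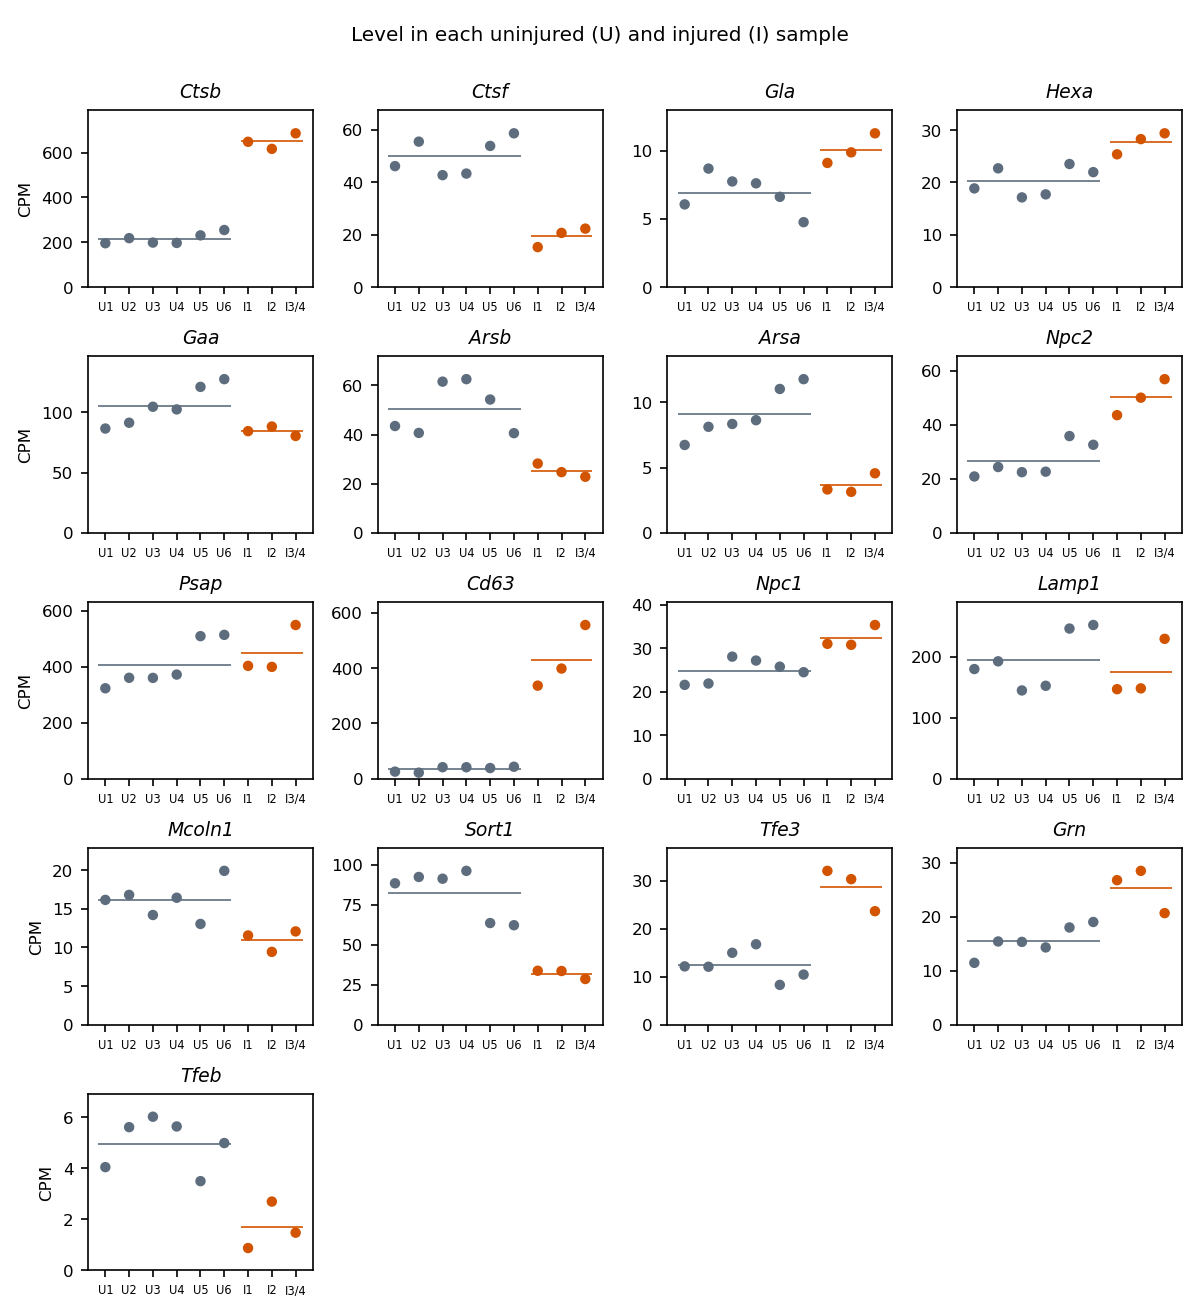
CPM (y axis, each from 0) in each sample, U1 to U6 uninjured and I1, I2 and I3/4 injured, for the lysosomal genes given in full other than Ctss; lines mark group means. Injured samples lie apart from uninjured samples in every panel except Gaa, Psap and Lamp1.

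Of the 9 cathepsins and peptidases, 7 were tested, and 1 rose and 1 fell. Ctsb (chr14:63358384-63383372) encodes cathepsin B, a cysteine protease with both endopeptidase and dipeptidase activity. Its level was 195, 208 and 254 CPM in the lowest, median and highest uninjured sample (mean 216 ± 23.7, SD, 6 samples) and 648, 617 and 686 CPM in the injured samples (mean 650.3 ± 34.7, SD, 3 samples). The injured samples were close to each other and all above the uninjured samples. The log2 change was 1.59 (SE 0.13, adjusted p = 2.42e-06), a 3.02-fold rise, and it was 1.42 (adjusted p = 0.000266) over cells without an mCherry UMI. Ctsb was already found in 73.5% to 83.0% of the cells of an uninjured library at 8000 UMIs, and in 92.5% to 93.6% of those of an injured library (94.4% to 99.0% and 91.3% to 96.3% unthinned).

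Ctsf (chr19:4905118-4915986), another cysteine cathepsin whose loss causes an adult neuronal storage disease in humans, moved the other way. It was present at 42.7, 50.01 and 58.7 CPM in the lowest, median and highest uninjured sample and at 15.2, 20.7 and 22.3 CPM in the injured samples. Every injured sample was below the lowest uninjured sample. Ctsf had a log2 change of -1.36 (SE 0.17, adjusted p = 5.68e-05), a fall called in every alternative setting run. The aspartic protease gene Ctsd had a narrow spread, with 128 to 140 CPM in uninjured and 151, 151 and 163 CPM in injured samples. Its groups did not overlap, yet the change of 0.22 on the log2 scale was not called (SE 0.11, adjusted p = 0.111), and it was 0.03 over cells without an mCherry UMI. Its reads may be shared with Gm49369, a counted gene that overlaps it on the same strand. The remaining tested genes of this group, Ctsa, Ctsl, Ctsz and Tpp1, had log2 changes from -0.13 to 0.23 and were not called.

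Ctss and Ctsh did not pass the filter on low counts. Ctss, a cathepsin abundant in microglia, had 24 UMIs over all uninjured and 3 over all injured libraries, and 22 of these lay in uninjured 4, which gave 0.905 CPM there and at most 0.350 CPM in any other sample. Cells of uninjured 4 without a UMI of any microglia or macrophage marker held 1 of those 22. Fitted without the filter, Ctss was not called (log2 change -0.86, adjusted p = 0.586), nor was Ctsh (adjusted p = 0.347).

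Of the 15 glycosidases and sulfatases, 14 were tested, 2 rose and 2 fell. The falls were those of the sulfatases Arsa and Arsb. Arsa (chr15:89355820-89361653) encodes arylsulfatase A, which removes sulfate from the myelin lipid sulfatide. It was present at 6.74, 8.49 and 11.8 CPM in the lowest, median and highest uninjured sample and at 3.33, 3.14 and 4.57 CPM in the injured samples (log2 change -1.29, SE 0.24, adjusted p = 0.000988). Arsb (chr13:93907903-94079528) encodes arylsulfatase B, which acts on dermatan and chondroitin sulfate. Its level was 40.6, 48.8 and 62.5 CPM in uninjured and 28.2, 24.7 and 22.8 CPM in injured samples (log2 change -1.01, SE 0.18, adjusted p = 0.000893). The groups did not overlap for either sulfatase.

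The rises were small and less stable. Hexa, the alpha subunit of the hexosaminidase that degrades ganglioside GM2, was at 17.1, 20.4 and 23.5 CPM in the lowest, median and highest uninjured sample and at 25.4, 28.3 and 29.4 CPM in the injured samples (log2 change 0.46, SE 0.14, adjusted p = 0.0211). Gla, the alpha-galactosidase that is deficient in Fabry disease, was at 4.76, 7.11 and 8.69 CPM and at 9.10, 9.88 and 11.3 CPM (log2 change 0.53, SE 0.20, adjusted p = 0.0474). The groups lay side by side without overlap for both genes. Hexa was not called without injured 2 (log2 change 0.45, adjusted p = 0.0667) or injured 3/4 (0.43, 0.0666), or over cells without an mCherry UMI (0.33, 0.235). Gla was not called in 19 of 26 alternative settings, which include leaving out any 1 sample other than uninjured 2 (log2 changes from 0.45 to 0.61, adjusted p from 0.05 to 0.163, the latter without injured 3/4) and the fit over cells without an mCherry UMI (0.36, adjusted p = 0.299). Over all settings the lowest log2 change of Gla was 0.03 and its highest adjusted p was 0.966. Gaa, the acid glucosidase that degrades glycogen, had the highest mean CPM of the group, at 86.6, 104 and 128 CPM in uninjured and 84.4, 88.3 and 80.4 CPM in injured samples. Its groups overlapped and it was not called (log2 change -0.33, SE 0.14, adjusted p = 0.0872). Sgsh did not pass the filter, with 36 UMIs over all uninjured and 18 over all injured libraries, and was not called without it (adjusted p = 0.935), and the other uncalled genes of the group lay between -0.53 and 0.23 on the log2 scale.

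Of the 7 lipid enzymes and lipid-binding proteins, Npc2 alone was called. Npc2 (chr12:84801334-84820617) is a soluble protein that hands cholesterol to the membrane protein encoded by Npc1. It was present at 20.9, 23.5 and 35.8 CPM in the lowest, median and highest uninjured sample and at 43.6, 50.1 and 56.9 CPM in the injured samples. Uninjured 5 and 6 were the highest uninjured samples and did not reach the injured ones. A log2 change of 0.93 was fitted (SE 0.18, adjusted p = 0.00157), and over cells without an mCherry UMI it was 0.66 and no longer called (adjusted p = 0.0603). Psap, the precursor of the saposins that present lipids to their enzymes, was at 323, 366 and 514 CPM in uninjured and 403, 399 and 549 CPM in injured samples. The groups overlapped, and Psap was not called (log2 change 0.15, SE 0.19, adjusted p = 0.564), while without uninjured 5 and 6 it was (0.34, adjusted p = 0.0393). Without injured 3/4 its log2 change was 0.00 (adjusted p = 0.991), and over cells without an mCherry UMI it was 0.07 (0.836). Galc, Asah1, Gm2a, Lipa and Smpd1 were not called, with log2 changes from -0.76 to 0.18.

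The related transcription factors Tfeb and Tfe3 moved in opposite directions. Tfeb (chr17:48047837-48103348) had 290 UMIs over all uninjured and 39 over all injured libraries. Its level was 3.49, 5.296 and 6.02 CPM in the lowest, median and highest uninjured sample and 0.875, 2.69 and 1.48 CPM in the injured samples, all of which were below every uninjured sample. Tfeb had a log2 change of -1.62 (SE 0.35, adjusted p = 0.00255). Tfe3 (chrX:7628761-7641444) was at 8.27, 12.1 and 16.7 CPM in uninjured and at 32.0, 30.3 and 23.6 CPM in injured samples. Here injured 3/4 was the lowest injured sample and uninjured 5 and 6 were the lowest uninjured samples, without overlap between the groups. For Tfe3 the log2 change was 1.17 (SE 0.20, adjusted p = 0.000673). Grn (chr11:102321141-102327874), the precursor of the granulins and a partner of prosaposin on the way to the lysosome, was at 11.5, 15.4 and 19.0 CPM in uninjured and at 26.8, 28.5 and 20.7 CPM in injured samples. Injured 3/4 was again the lowest and lay just above the highest uninjured sample (log2 change 0.69, SE 0.17, adjusted p = 0.00578). These are RNA levels, and TFEB and TFE3 are controlled largely by phosphorylation and by their place in the cell, which were not measured.

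The motif that TFEB family proteins bind, TCACGTGA, and its core CACGTG (each the same on both strands, the core contained in the longer motif) were counted from 250 bases before to 50 bases from the start site of the canonical transcript on GRCm39. Of the 42 lysosomal promoters, 12 held CACGTG (28.6%) and 4 held TCACGTGA (9.52%), beside 7.82% and 1.11% of 21757 protein-coding genes, 9.94% and 1.65% of the 12332 of them that were tested, and 23.2% and 13.1% of 99 genes of the further lysosome and autophagy lists. The share with the longer motif rests on 4 lysosomal promoters, and differences between these shares were not tested. CACGTG was found in 2 of 8 genes that rose, 3 of 7 that fell and 6 of 24 that were not called. The called genes with the core are shown as 30 bases on the gene's strand around each match, with CACGTG in capitals, because they include genes that moved in both directions.
Ctsb, chr14:63359879-63359908, forward strand, 14 bases after the start site: gcggtcaagcatCACGTGacgaatcagccc
Gla, chrX:133501964-133501993, reverse strand, 77 bases before the start site: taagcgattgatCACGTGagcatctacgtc
Gla, chrX:133501931-133501960, reverse strand, 44 bases before the start site: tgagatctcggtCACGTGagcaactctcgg
Mcoln1, chr8:3550462-3550491, forward strand, 22 bases after the start site: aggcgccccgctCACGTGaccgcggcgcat
Mcoln1, chr8:3550436-3550465, forward strand, 4 bases before the start site: ggtcgcgcttgtCACGTGttcagttcaggc
Ctsf, chr19:4905102-4905131, forward strand, 4 bases before the start site: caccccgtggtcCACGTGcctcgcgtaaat
Arsa, chr15:89361626-89361655, reverse strand, 10 bases after the start site: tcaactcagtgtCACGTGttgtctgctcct
The sites of Ctsb and Gla and the downstream site of Mcoln1 hold the longer motif. Ctsb, the gene with the second largest rise on the list, and Ctsf, which fell, thus both carry the core near the start site, and no match was found in this window of Cd63, Npc2, Tfe3, Sort1 or Tfeb, which says only that these letters are not in it.

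Summed over the 42 genes, the level was 2003, 2126 and 2609 CPM in the lowest, median and highest uninjured sample and 2897, 2979 and 3369 CPM in the injured samples. All injured samples were thus above the uninjured ones. Cd63 and Ctsb, the genes that rose most, were then left out of the sum, while no gene that fell was left out. This choice favours overlap, so the sums below show the weight of Cd63 and Ctsb and are no result about the other genes. Without Cd63 the sum was 1978, 2084 and 2566 CPM in uninjured and 2561, 2581 and 2814 CPM in injured samples, with injured 1 just below the highest uninjured sample. Without Cd63 and Ctsb the sum was 1782, 1887 and 2330 CPM in uninjured and 1913, 1964 and 2128 CPM in injured samples, and the groups overlapped. Uninjured 5 and 6 held the highest uninjured sums. Both lay above uninjured 1 to 4 for 15 of the 39 tested genes (38.5%, beside 29.9% of all genes tested), among them Psap, Ctsl, Ctsz, Smpd1 and Lamp1, and below them for 2, Sort1 and Tfe3 (5.13%, beside 28.7% of all genes tested).

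**Figure D3:**
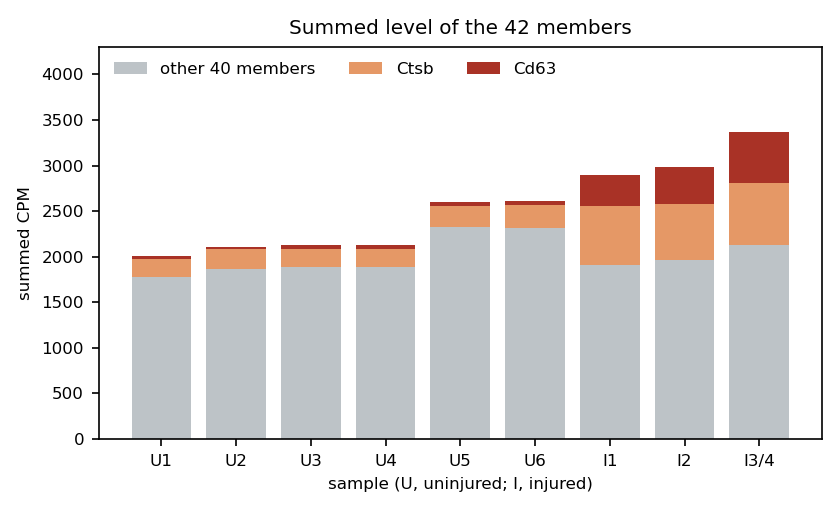
Summed CPM (y axis, from 0) of the 42 lysosomal genes in each sample, split into Cd63, Ctsb and the other 40 genes. The grey parts of the bars overlap between uninjured (1782 to 2330 CPM) and injured samples (1913 to 2128 CPM), and the red and orange parts are taller in injured samples. Cd63 and Ctsb are the genes that rose most, so taking them off favours overlap of the grey parts.

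Cd63, Ctsb and several other lysosomal genes are also abundant in microglia and macrophages, so the markers of these cells were followed. Of 16 markers, 2 were tested, Cx3cr1, the most abundant, was higher (log2 change 1.36, adjusted p = 0.023), and P2ry12 was not called. The call of Cx3cr1 ended without injured 1 (adjusted p = 0.0691) or injured 2 (0.17). Their summed level was 6.43, 9.92 and 23.6 CPM in the lowest, median and highest uninjured sample and 16.3, 21.1 and 8.33 CPM in the injured samples. The groups overlapped, and injured 3/4, with the highest Cd63, had the lowest injured sum. Tmem119, C1qa, C1qc, Tyrobp, Trem2 and Itgam had no UMI in any injured library, while Cd74 had 0 UMIs over all uninjured and 6 over all injured libraries and Aif1, which did not pass the filter, had 25 and 28, with every injured sample above every uninjured sample. Of all deposited cells, 4 uninjured cells and 1 injured cell held at least 3 of the 16 markers. Over the 1177 uninjured and 1422 injured cells without a UMI of any of these markers, the log2 change was 3.57 for Cd63 (adjusted p = 1.28e-07) and 1.58 for Ctsb (2.17e-06). Of the 15 lysosomal genes called, 12 kept their call over these cells, and Gla (log2 change 0.53, adjusted p = 0.0979), Npc1 (0.35, 0.069) and Scarb2 (-0.28, 0.0891) did not, beside 0.53, 0.37 and -0.35 over all cells.

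**Figure D4:**
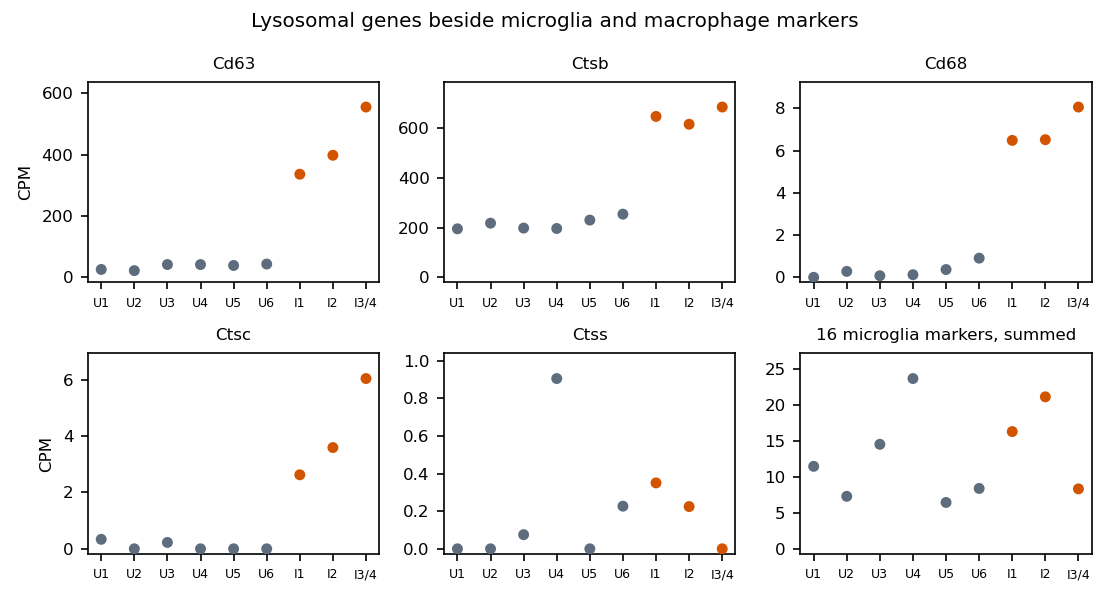
CPM (y axis) in each uninjured (U) and injured (I) sample of Cd63, Ctsb, Cd68, Ctsc and Ctss and of the summed 16 microglia and macrophage markers. Cd63, Ctsb, Cd68 and Ctsc are high in the injured samples, while Ctss and the summed markers are highest in uninjured 4.

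Markers of other retinal cells changed unevenly. Of the 6 Mueller glia markers, 2 were higher and 2 lower, with summed levels of 117 to 183 CPM in uninjured and 110, 126 and 97.2 CPM in injured samples. Glul rose from a mean of 43.8 to 82.2 CPM (log2 change 0.91, adjusted p = 7.52e-05) and Rlbp1 from 1.754 to 10.02 CPM (2.13, 0.0136), each with all injured samples above. Dkk3, which had the highest mean CPM, fell from 87.7 to 15.6 CPM (-2.50, 5.64e-06). The other lower gene, Apoe, was not called without injured 1 (adjusted p = 0.0716) or injured 3/4 (0.089), or over cells without an mCherry UMI (0.0509). Of the 6 amacrine markers edgeR called 1, Slc6a9, which was higher, with sums of 52.3 to 179 CPM and 148, 109 and 56.7 CPM, led by Gad1. The 5 amacrine markers not called had log2 changes from -0.81 to -0.10. Pde6b was the sole rod and cone marker that edgeR called (higher, log2 change 4.76, adjusted p = 6.98e-07). It was at no more than 0.552 CPM in uninjured and at 8.75, 11.9 and 10.7 CPM in injured samples. Rod and cone sums were 2.80 to 15.1 CPM and 9.98, 30.3 and 12.6 CPM, and Sag had the highest mean CPM over all samples. The 2 astrocyte markers tested (of 4, led by S100b) and the 1 bipolar marker tested (Prkca, of 6) were not called by edgeR, and the 6 endothelial and pericyte markers (led by Pecam1) did not pass the filter. Astrocyte sums were 5.33 to 27.9 CPM in uninjured and 6.13, 7.19 and 6.18 CPM in injured samples, bipolar sums 78.7 to 135 CPM and 146, 159.9 and 110.1 CPM, and endothelial and pericyte sums 1.36 to 7.07 CPM and 2.45, 4.49 and 2.15 CPM. Opn1sw and Cldn5 had no UMI in any injured library. The part of these cells in the lysosomal results was not tested beyond the cells left out above.

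Other genes of the pathway were taken from 5 further lists with 100 symbols, of which 96 were tested; 18 rose and 13 fell, or 32.3% against the 44.0% of all genes. Of 29 tested further hydrolases, 6 rose and 4 fell. The cysteine protease gene Ctsc, which activates other proteases, had 4 UMIs over all uninjured and 121 over all injured libraries, with at most 0.337 CPM in an uninjured sample and 2.63, 3.59 and 6.04 CPM in the injured samples (adjusted p = 4.7e-05). Dnase2a, the acid DNase of the lysosome, rose from 0.552, 1.71 and 3.46 CPM (lowest, median and highest) to 19.4, 21.3 and 18.5 CPM (log2 change 3.11, adjusted p = 2.81e-05). The carboxypeptidase gene Scpep1 rose with a log2 change of 1.77 (adjusted p = 7.22e-07). Ppt1, the thioesterase that removes palmitate from proteins, fell by 0.49 on the log2 scale (adjusted p = 0.0118), and was not called without injured 1 (-0.46, adjusted p = 0.057) or injured 3/4 (-0.44, 0.0569). The falls of Aga (-0.93, adjusted p = 0.0335), Hgsnat (-0.46, 0.0371) and Fuca2 (-0.34, 0.0479) are near the threshold, with overlapping groups of samples, and each call ended without any 1 injured sample, without uninjured 3 and over cells without an mCherry UMI. Without injured 1 the log2 changes were -0.82, -0.33 and -0.34 (adjusted p = 0.126, 0.185 and 0.124), and over cells without an mCherry UMI they were -1.32, -0.42 and -0.46 (0.0534, 0.114 and 0.12). The calls of Hgsnat and Fuca2 also ended without uninjured 2, 4, 5 or 6.

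Of 20 tested further membrane proteins, 4 rose and 4 fell. Cd68, a glycoprotein used as a marker of macrophage lysosomes, rose from 0 to 0.906 CPM in uninjured samples to 6.48, 6.51 and 8.06 CPM in injured samples (log2 change 4.90, SE 0.49, adjusted p = 1.09e-05). Of its 186 UMIs in injured libraries, 156 (83.9%) lay in cells with no UMI of the 16 microglia and macrophage markers, which made up 88.4% of injured cells and held 85.7% of all injured UMIs. Slc17a5, which exports sialic acid, and Lamp2, a partner of Lamp1 needed for autophagy, rose with log2 changes of 0.99 (adjusted p = 0.000112) and 0.71 (0.000251). Pip4p1 and Tmem106b fell by 1.36 and 0.67 (adjusted p = 0.00102 and 0.00074), and Abca2 fell by 0.73 (adjusted p = 0.0374). The call of Abca2, whose groups overlapped, ended without any 1 injured sample or any 1 of uninjured 3 to 6 (log2 changes from -0.78 to -0.62, adjusted p from 0.0507 to 0.121) and over cells without an mCherry UMI (-0.54, 0.2). Mfsd1 rose by 0.61 (adjusted p = 0.0243) and Tmem175 fell by 0.44 (0.0138), and neither was called without injured 3/4 (0.38 and -0.31, adjusted p = 0.176 and 0.0953) or over cells without an mCherry UMI (0.40 and -0.35, 0.123 and 0.0753).

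Of 11 genes that deliver enzymes to the lysosome, 2 rose and 1 fell. Cln8, an endoplasmic reticulum protein that loads lysosomal enzymes for export, rose from 7.02, 7.73 and 9.56 CPM to 32.2, 27.8 and 44.2 CPM (log2 change 2.15, SE 0.17, adjusted p = 1.47e-06). Igf2r, the large mannose 6-phosphate receptor, rose with a log2 change of 1.06 (adjusted p = 8.97e-05). Nagpa, which uncovers the mannose 6-phosphate tag, fell by 1.43 (adjusted p = 0.00203). The groups of samples did not overlap for any of these 3 genes.

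Of 16 tested members of the TFEB family and its regulators, 4 rose and 1 fell. Fnip1 and Fnip2, partners of folliculin, rose with log2 changes of 0.97 (adjusted p = 0.000363) and 0.94 (0.00411). Zkscan3, described as a repressor of autophagy genes, rose by 0.89 (0.000194), and Lamtor3, a scaffold of mTORC1 on the lysosome, fell by 1.21 (0.00119). Rragc rose by 0.47 (0.0413, with overlapping groups) and was not called without injured 1, injured 3/4 or any 1 of uninjured 1 to 4 (log2 changes from 0.35 to 0.50, adjusted p from 0.0502 to 0.174), nor over cells without an mCherry UMI (0.291). Tfec had 0 UMIs over all uninjured and 1 over all injured libraries. Of 20 autophagy genes, 2 rose and 3 fell: Sqstm1, the receptor p62, rose from 155, 205 and 251 CPM to 368, 390.1 and 386 CPM (log2 change 0.88, adjusted p = 0.00109; 0.57 and 0.177 over cells without an mCherry UMI), and Wipi2 rose by 0.40 (0.0442). The call of Wipi2 ended without any 1 injured sample or any 1 of uninjured 1 to 4 (log2 changes from 0.36 to 0.46, adjusted p from 0.0508 to 0.127). Rab7, the GTPase of late endosomes, fell by 0.85 (0.00509), Atg9a by 0.76 (0.00752) and the kinase gene Ulk1 by 0.66 (0.0106). Ulk1 was not called without injured 2 (-0.52, adjusted p = 0.0638) or over cells without an mCherry UMI (-0.45, 0.214).

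**Figure D5:**
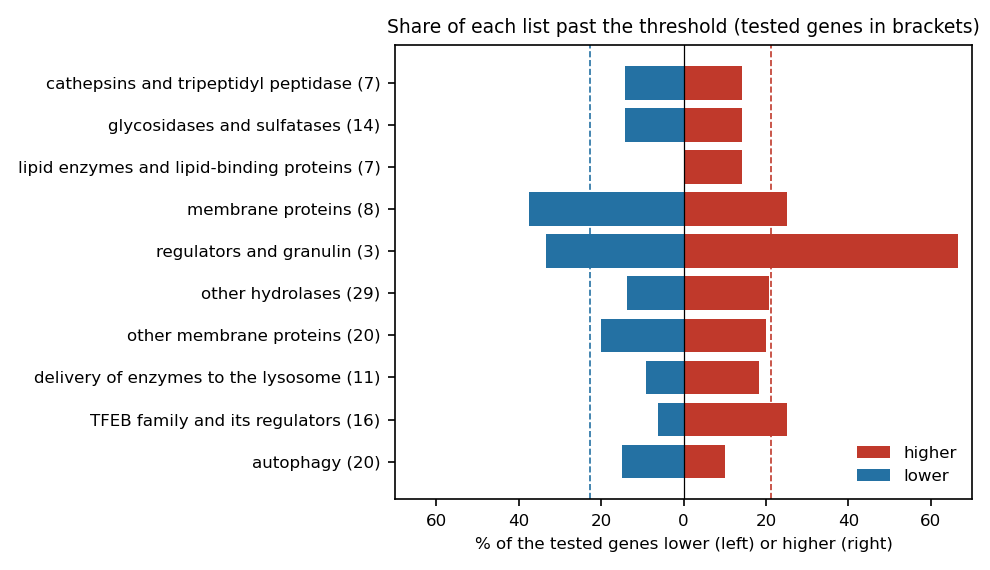
Share of tested genes (x axis, %) lower (left) or higher (right) after ONC in each role group and further list, with the number tested in brackets; dashed lines mark the shares over all genes tested, 22.7% and 21.3%. The group of 3 regulators and the membrane proteins extend past both lines. The list of the TFEB family and its regulators extends past the line for genes higher alone, and every other group and list lies inside both lines.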

How the data were processed

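The authors aligned reads to mm39 with Cell Ranger (version 7.0.1 per the labels) and deposited unnormalized UMI counts for cells given as RGCs. These UMI counts were summed by library (Python 3.11.15, pandas 2.3.3, scipy 1.17.1, numpy 2.4.6; figures with matplotlib 3.10.9), and injured 3 and 4 were averaged, with rounding, which gave 6 uninjured and 3 injured samples. The test was that of edgeR 4.0.16 under R 4.3.3 (filterByExpr, TMM, robust quasi-likelihood fit, condition as the only term), with Benjamini-Hochberg adjustment over 14234 genes at 0.05 and no minimum fold change. A standard error is the size of the fitted log2 change over the square root of F. No test was run over cells, and doublets were not called; a setting without cells holding at least 3 markers of another class was run.

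The members and lists were chosen with earlier results of these data known. Genes given in full are, in each role group, up to 4 called genes with the largest absolute log2 fold change and the gene with the highest mean CPM, with Tfeb, Tfe3 and Ctss always; of the 5 further lists, up to 3 called genes per list that rose most and up to 3 that fell most; of the 8 marker lists (RGCs, microglia and macrophages, Mueller glia, astrocytes, amacrine cells, bipolar cells, rods and cones, endothelial cells and pericytes), the gene with the highest mean CPM and markers at 0. Ctsd, Scarb2, Fuca2, Mfsd1, Tmem175, Rragc, Pou4f2, Rbpms, Tubb3, P2ry12, Slc6a9, Glul, Rlbp1, Apoe, Aif1, Pde6b and the genes without a call that are listed by range were named after their values were seen. Alternatives were DESeq2 1.42.0, limma-voom 3.58.1 with quality weights, library totals, upper-quartile factors, no filter, at most 10% mitochondrial UMIs, at least 1% ribosomal protein UMIs, cells without microglia UMIs, cells without another class, thinning to 8000 UMIs, 10 separate libraries, similar libraries summed, uninjured and injured 1 to 4 as separate libraries (their number as a block, or no block), each sample left out, and uninjured 5 and 6 left out. Cells without mCherry and cells with 3 to 5% Malat1 UMIs were added after the data were seen; the Malat1 range left 7 cells of uninjured 5 and 8 of uninjured 6. Promoters and positions come from the GRCm39 genome with GENCODE M39, the same assembly as mm39. Single values of some genes on the lists are not given.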

Additional observations from a re-analysis of the deposited data

Results flagged for a closer look

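In each of 75 groups of 6 uninjured samples (the lysosomal genes, their sum, the further genes named and the summed markers), the sample farthest from the rest was compared with the group's range, and in 3 groups its gap passed Dixon's 95% critical value for that range; chance gives about 1 in 20 such groups. Ctss was at 0.905 CPM in uninjured 4, against a median of 0.0376 CPM. The summed astrocyte markers reached 27.9 CPM in uninjured 5 (median 8.77 CPM), and the summed rod and cone markers reached 15.1 CPM in the same sample (median 3.78 CPM). Groups of 3 injured samples were not examined in this way.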

How the results depend on the processing

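Over 26 alternative settings, the 15 genes called on the lysosomal list kept their sign. Cd63, Ctsb, Tfe3, Ctsf, Arsb and Sort1 were called in all 26 and Tfeb in the 24 in which it was tested, while Gla was not called in 19, Npc1 in 12, Scarb2 in 10, Hexa and Mcoln1 in 5 each, Grn in 2 and Arsa and Npc2 in 1 each. Of the 24 genes not called, 13 passed the threshold in at least 1 setting. On the further lists, Slc17a5, Nagpa, Atg9a and Rab7 were each not called in 1 setting (highest adjusted p 0.18, 0.111, 0.0923 and 0.0515). Over the settings the log2 change of Slc17a5 ranged from 0.42 to 1.08 and that of Nagpa from -1.64 to -0.93.

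The 8 genes higher became 14 with limma-voom and quality weights, 4 with similar libraries summed (3 uninjured against 2 injured sums) and 5 among cells with 3 to 5% Malat1 UMIs, and 5 to 7 with each sample left out. The 7 genes lower became 11 with libraries 1 to 4 without the block, and 5 to 7 with each sample left out. The 6256 genes called became 3528 among cells with 3 to 5% Malat1 UMIs, and 4961 to 6420 with each sample left out. The 16 genes without overlap became 8 with thinning and 8 among cells with 3 to 5% Malat1 UMIs, and 16 to 19 with each sample left out. They became 24 with similar libraries summed and 20 without uninjured 5 and 6, fits with fewer samples. The causes were not tested. Lamp1 turned positive without uninjured 5 and 6 (0.069) and with libraries 1 to 4 without (0.17) or with the block (0.15), and Aga turned positive (0.063) among cells with 3 to 5% Malat1 UMIs.

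Library numbers do not pair the samples, since the deviations of libraries with the same number correlated at -0.055, 0.006, -0.043 and -0.045. With the number as a block, 12 genes were higher and 7 lower on the lysosomal list, and 7782 genes were called in all. Depth limits the least abundant genes: Ctss, Ctsh and Sgsh did not pass the filter and were not called without it, and Tfeb, with 39 UMIs over all injured libraries, had the largest standard error of the 39 tested (0.35).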
